A study of Mus musculus with 12 samples.

Results

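The transcripts described here encode 9 proteins of mitochondrial fatty acid oxidation, Cpt1a, Cpt1b, Cpt2, Acadm, Acadl, Acadvl, Hadha, Hadhb and Acaa2. They were listed by name, and each gene was read from the probe set with the highest mean over the 12 arrays of the series. Of the 9 genes, 8 had a probe set of their own among 18193 such genes. Cpt1b did not: its one probe set is annotated to 3 genes, Cpt1b, the adjoining choline kinase gene Chkb and Gm44502, so it is called the Cpt1b-Chkb probe set and counted as 1 of 9 probe sets. The study hybridized RNA from heart, liver, lung and thymus of Sv/129 mice aged 2 months, of 3 genotypes, to Affymetrix GeneChip mouse genome arrays. The genotypes were wild type (WT), mice lacking the tumour suppressor p53 (p53-/-, labelled p53KO) and mice lacking p66, the longest product of the Shc1 gene (p66-/-, labelled p66KO). No group received a treatment. Each tissue and genotype had 1 array, of RNA pooled from 4 mice, and the pools of different tissues of a genotype may share mice. The methods name pools of thymus, liver and heart, and the lung is named in the labels. Values are log2 signals, so a difference of 1 is 2-fold.

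Long-chain fatty acids enter mitochondria as carnitine esters. Carnitine palmitoyltransferase 1 on the outer membrane forms the ester and is the step that malonyl-CoA inhibits. Its isoform CPT1A predominates in liver and CPT1B in heart and skeletal muscle. CPT2 on the inner membrane returns the acyl-CoA. The acyl-CoA dehydrogenases of very long (Acadvl), long (Acadl) and medium (Acadm) chains then make the first oxidation of each cycle. The trifunctional protein, with subunits Hadha and Hadhb, carries the following steps for long chains, and the thiolase Acaa2 releases acetyl-CoA. Heart takes most of its energy from this pathway, and fasting liver uses it to make ketone bodies.

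Each tissue label was matched by its defining markers: cardiomyocyte genes averaged 13.8 to 14.0 in heart, hepatocyte genes 14.1 to 14.2 in liver, lung epithelial genes 13.7 to 14.0 in lung and thymocyte genes 9.88 to 10.9 in thymus. Several arrays stood apart from the others of their tissue. The hepatocyte list, with 7 of 8 genes measured, averaged 11.2 in WT lung, 10.1 in p66KO lung and 7.05 in p53KO lung. The cardiomyocyte list, 8 of 8 measured, averaged 8.49 to 9.24 in lung, and 8.60, 5.93 and 8.24 in WT, p53KO and p66KO thymus. In the same order, 6 of 6 brown adipocyte genes averaged 9.87, 8.75 and 9.37 in thymus. Salivary gland genes averaged 14.4 in WT thymus against 4.95 and 4.92 in the knock-outs. As a sign of RNA quality, the 3' minus 5' signal of Gapdh was 2.29 in WT lung, 0.66 in p53KO lung and 1.32 in p66KO lung, against 0.24 to 0.95 elsewhere. The Shc1 probe sets ranged from 9.14 to 9.83 and from 6.80 to 8.08 on the 4 p66KO arrays, and from 8.57 to 9.31 and 5.74 to 7.24 on the other 8. They may lie outside the deleted part and do not check the label. In whole tissue, fewer cells of a type and less RNA per cell cannot be told apart.

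Cpt1a was highest in liver. Its signal in WT, p53KO and p66KO was 11.48, 11.01 and 10.58 in liver and 9.25, 8.79 and 8.83 in heart. It was 9.62, 9.53 and 9.47 in lung, and 9.55, 9.35 and 9.34 in thymus. Every liver array lay above every array of the other tissues, and every heart array lay below all those of lung and thymus. Liver exceeded heart by 4.19-fold, a heart minus liver difference of -2.07 (SE 0.17, limma adjusted p = 4.03e-06). Heart also lay below lung, with a difference of -0.58 (SE 0.17, adjusted p = 0.0219), which missed the threshold of 0.05 with the arrays rescaled by a second quantile normalization (-0.26) or by cyclic loess (-0.27), and without any single knock-out array of heart or lung (-0.51 to -0.62). The next step in the order, thymus over heart, was 0.46 (adjusted p = 0.0572), and lung over thymus was 0.12 (adjusted p = 0.648), so neither of these neighbours differed past the threshold. Thymus over heart passed it in 5 of 22 alternatives, among them without the WT thymus array (0.53) and with the probe sets of Cpt1a averaged, when heart minus thymus was -1.08 and lung minus thymus, 1.09, passed too.

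The Cpt1b-Chkb probe set had the reverse pattern. Its signal in WT, p53KO and p66KO was 10.45, 10.42 and 9.97 for heart, 6.49, 6.60 and 6.65 for liver, 6.27, 6.81 and 6.43 for lung, and 7.28, 6.98 and 7.38 for thymus. All heart arrays lay above all others by over 2 log2 units, and the liver and lung arrays overlapped. Heart exceeded liver by 13.02-fold, a difference of 3.70 (SE 0.20, limma adjusted p = 1.76e-07), and lung by 13.71-fold. Thymus stood above liver by 0.64 (adjusted p = 0.0321) and above lung by 0.71 (adjusted p = 0.0242). The first missed the threshold in 6 of 22 alternatives and the second in 4, among them leaving out the p66KO thymus array (0.50 and 0.58). In thymus the cardiomyocyte and brown adipocyte lists were lowest in p53KO, as this probe set was. The skeletal muscle list went the other way, at 5.88, 8.97 and 5.86 in WT, p53KO and p66KO. The part of these lists in the result was not tested. The probe set that Chkb has to itself gave 9.35, 9.18 and 9.17 in heart and 8.85, 9.01 and 8.96 in liver. Its heart and liver arrays did not overlap, but stood far closer than those of the shared probe set.

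**Figure D1:**
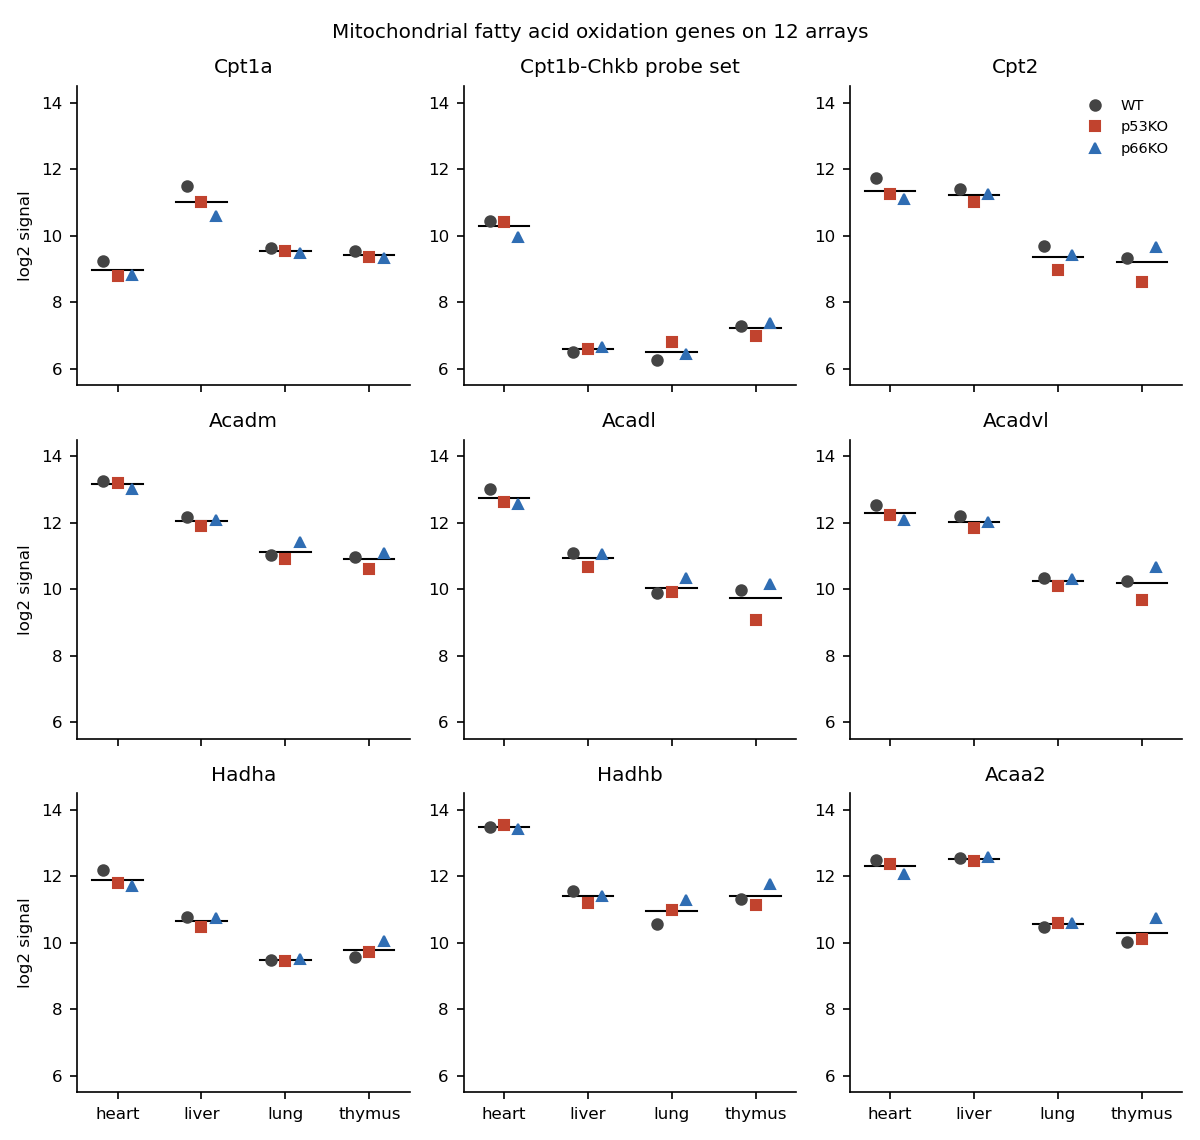
Log2 signal (y axis) of the 9 probe sets in 4 tissues (x axis), with 1 point per array, shaped by genotype, and a bar at the mean of the 3 arrays of a tissue. Cpt1a is highest in the liver arrays (10.58 to 11.48), the Cpt1b-Chkb probe set in the heart arrays (9.97 to 10.45), and the others fall from heart or liver to lung and thymus.

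Cpt1a has a pair of further probe sets, which share the order of liver over heart but not its size. The brighter of them read 10.61, 9.96 and 9.76 in WT, p53KO and p66KO liver and 6.09, 4.77 and 4.71 in heart. The dimmer read 10.27, 9.50 and 9.58 in liver and 5.64, 4.43 and 4.82 in heart. The means over 3 arrays gave heart minus liver differences of -4.92 and -4.82, against -2.07 on the probe set used, and -3.93 with all of them averaged. In lung they gave 9.03, 6.85 and 8.45, and 8.89, 6.72 and 8.28, so the p53KO minus WT difference was -2.18 and -2.16 where the brightest probe set gave -0.08. The hepatocyte list in the same arrays was 11.2, 7.05 and 10.1, the 3' minus 5' signal of Gapdh was also lowest in p53KO, and their part in this difference was not tested. For Acaa2, the dimmest probe set read 6.65 in WT lung against 8.82 in p53KO and 8.35 in p66KO, while the probe set used here read 10.48, 10.61 and 10.61. For Hadhb, the next brightest probe set read 11.31, 9.88 and 11.29 in lung, lowest in p53KO, where the probe set used here was lowest in WT. In heart, the p53KO minus WT difference of Cpt1a was -1.32 and -1.21 on its other probe sets against -0.46 on the one used, and the p66KO difference -1.38 and -0.82 against -0.42. The knock-out differences of these genes in lung, and of Cpt1a in heart, therefore turn on the probe set. The sign of the p66KO difference of Acadl and Cpt2 in thymus does too, as given below.

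**Figure D2:**
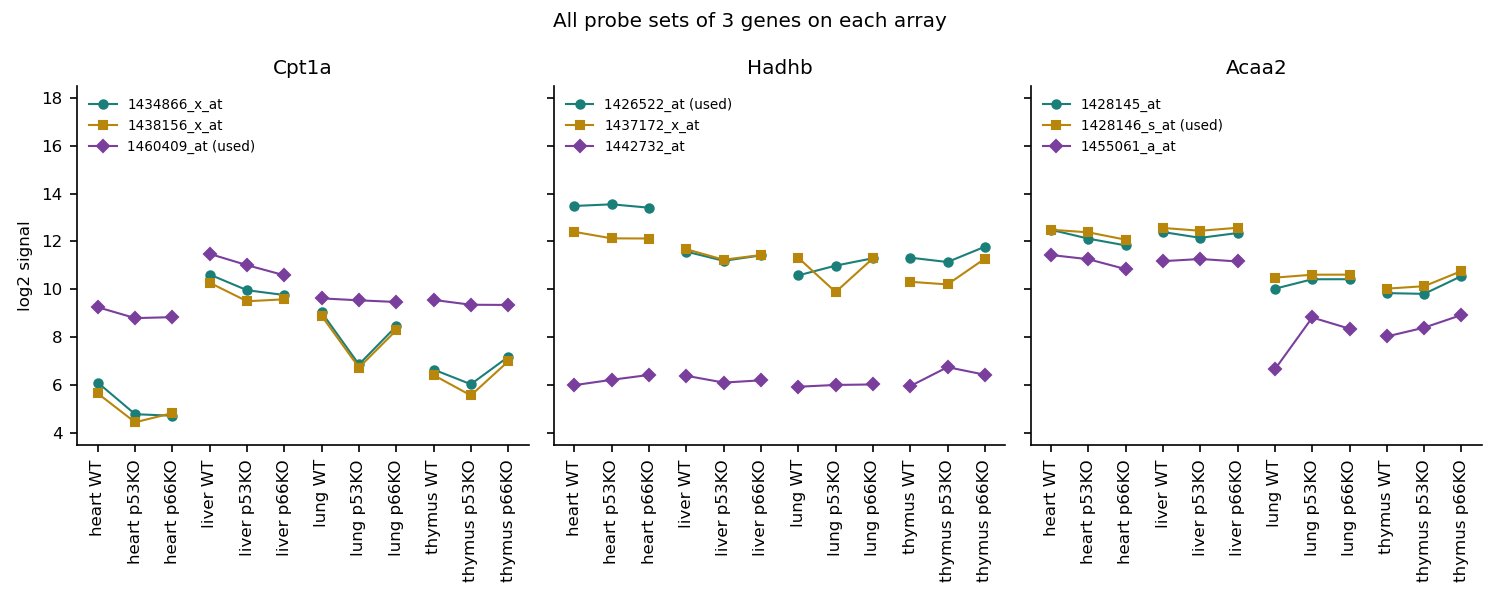
Log2 signal (y axis) of every probe set of Cpt1a, Hadhb and Acaa2 on each of the 12 arrays (x axis), with lines joining the 3 genotypes of a tissue. The dimmer Cpt1a probe sets drop from 9.03 and 8.89 in WT lung to 6.85 and 6.72 in p53KO lung while the one used reads 9.62 and 9.53.

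Cpt2, the inner membrane partner, did not separate heart from liver. It read 11.72, 11.24 and 11.09 in heart, 11.41, 11.02 and 11.25 in liver, 9.67, 8.98 and 9.43 in lung, and 9.34, 8.60 and 9.65 in thymus, in the order WT, p53KO and p66KO. Heart and liver overlapped, and both lay above every lung and thymus array. Heart minus liver was 0.12 (SE 0.21, limma adjusted p = 0.687), liver minus lung 1.87 (adjusted p = 4.45e-05) and lung minus thymus 0.17 (adjusted p = 0.62). Liver thus differed from lung by 3.66-fold, and neither pair of neighbours above or below that step passed the threshold.

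By their means, the 3 acyl-CoA dehydrogenases ordered the tissues as heart, liver, lung, thymus. The first step passed the test for Acadl and Acadm and not for Acadvl. The last, lung over thymus, passed for none: 0.32, 0.21 and 0.05 for Acadl, Acadm and Acadvl (limma adjusted p = 0.343, 0.422 and 0.893). Acadl, the long-chain enzyme, read 13.00, 12.63 and 12.56 in WT, p53KO and p66KO heart, 11.09, 10.66 and 11.06 in liver, 9.88, 9.93 and 10.34 in lung, and 9.96, 9.08 and 10.15 in thymus. Heart, liver and the other tissues formed separate ranges, and lung and thymus overlapped. Heart exceeded liver by 3.46-fold (difference 1.79, SE 0.22, adjusted p = 1.04e-04) and liver exceeded lung by 0.89 (adjusted p = 0.01), a call lost without the WT lung array (0.69). Averaged with a dim second probe set, the heart minus liver difference was 1.07. Acadm, the medium-chain enzyme, read 13.27, 13.19 and 13.00 in heart and 12.18, 11.90 and 12.07 in liver, a 2.15-fold difference (1.10, SE 0.17, adjusted p = 5.30e-04). Its lung and thymus arrays ranged from 10.62 to 11.41 and lay below all liver arrays. Acadvl, the very-long-chain enzyme, read 12.54, 12.22 and 12.10 in heart and 12.19, 11.84 and 12.02 in liver, which overlapped, with a difference of 0.27 (SE 0.20, adjusted p = 0.341). Its lung and thymus arrays, from 9.69 to 10.67, were again lower, liver exceeding lung by 3.41-fold (adjusted p = 4.86e-05). Whether the 3 heart minus liver differences differ from each other was not tested. The 250 bases before the Acadl start, chr1:66863310-66863559 on the - strand of GRCm38.p6, are shown as the promoter of the dehydrogenase with the largest heart minus liver difference on the probe sets used. Capitals mark GGGCGG, the GC box read by Sp1, on either strand; AGGTCA, the core letters of the half-site read by nuclear receptors such as PPAR-alpha, was searched too and is not in it.
Acadl: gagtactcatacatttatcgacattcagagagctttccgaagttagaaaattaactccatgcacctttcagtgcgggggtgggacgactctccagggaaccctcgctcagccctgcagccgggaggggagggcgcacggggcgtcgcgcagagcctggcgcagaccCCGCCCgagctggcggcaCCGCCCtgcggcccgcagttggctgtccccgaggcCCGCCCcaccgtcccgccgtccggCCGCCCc

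The subunits of the trifunctional protein were both highest in heart. Hadha read 12.18, 11.81 and 11.70 in WT, p53KO and p66KO heart, 10.77, 10.48 and 10.75 in liver, 9.50, 9.44 and 9.51 in lung, and 9.58, 9.72 and 10.05 in thymus. Hadhb read 13.48, 13.55 and 13.41 in heart, 11.57, 11.19 and 11.42 in liver, 10.58, 10.99 and 11.30 in lung, and 11.32, 11.14 and 11.78 in thymus. No heart array overlapped another tissue for either gene, whereas the liver and thymus arrays overlapped for Hadhb and not for Hadha. Heart exceeded liver by 2.35-fold for Hadha (1.23, SE 0.18, limma adjusted p = 3.16e-04) and 4.25-fold for Hadhb (2.09, SE 0.20, adjusted p = 1.72e-05). Liver exceeded thymus by 0.88 for Hadha (adjusted p = 0.0028), but for Hadhb the difference was -0.02 (adjusted p = 0.963). The next brightest Hadhb probe set gave 0.77 for heart minus liver (1.71-fold) and 0.85 for liver minus thymus, close to Hadha, and averaging the Hadhb probe sets, a dim one among them, gave 0.95 and 0.23. The genes lie head to head on mouse chromosome 5, with 272 bases between their starts, and 228 of the 250 bases before each start are shared (chr5:30155003-30155230). That stretch is shown because it stands before the starts of both subunits. The line gives the 250 bases before the Hadhb start, chr5:30155003-30155252 on the + strand, of which the first 228 also precede Hadha on the other strand, and GGGCGG is in capitals as before.
Hadhb: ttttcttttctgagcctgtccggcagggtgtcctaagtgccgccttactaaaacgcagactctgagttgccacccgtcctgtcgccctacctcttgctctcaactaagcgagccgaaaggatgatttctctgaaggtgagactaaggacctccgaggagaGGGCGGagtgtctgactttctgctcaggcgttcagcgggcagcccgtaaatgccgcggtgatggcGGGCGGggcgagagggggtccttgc

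RefSeq windows were at hand for 7 of the 9 genes, none of them Cpt1b or Acaa2. AGGTCA on either strand stood in 3 of the 7 (Cpt1a, Acadm and Acadvl, 1 copy each) and in 14.0% of all 32851 mouse windows of that length. The Cpt1a window precedes a start that lies 975 bases inside the outer bound of the gene, and the other 6 windows abut that bound. GGGCGG on either strand stood in 5 of the 7 (4 copies in Acadl, 2 each in Cpt1a, Cpt2 and Hadhb, 1 in Hadha) and in 32.7% of all windows. The copy in Hadha lies in the 228 bases shared with Hadhb, so 1 site is counted in both windows. TATAAA on either strand stood in 0 of the 7 and in 12.4% of all. The letters do not overlap each other in these windows, and a match describes the sequence only. The GC content of the 7 windows ran from 49.6% in Acadvl to 68.0% in Acadl, with a median of 52.4% over all windows.

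Acaa2, the thiolase of the last step, read 12.49, 12.38 and 12.07 in WT, p53KO and p66KO heart, 12.56, 12.44 and 12.57 in liver, 10.48, 10.61 and 10.61 in lung, and 10.02, 10.13 and 10.76 in thymus. The heart and liver ranges overlapped, and both lay over 1 log2 unit above lung and thymus. Heart minus liver was -0.21 (SE 0.20, limma adjusted p = 0.458) and heart minus lung was 1.75 (SE 0.20, adjusted p = 1.03e-04). The 3 probe sets whose heart minus liver difference did not pass the threshold were thus Cpt2, Acadvl and Acaa2, with differences of 0.12, 0.27 and -0.21.

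Counted over the 9 probe sets, 5 were higher in heart than liver, 1 was lower (Cpt1a) and 3 did not pass the test. Of all 18194 rows tested, 15.1% passed in the first direction and 15.4% in the second. The median difference of the 9 was 1.10, against 0.14 over all genes. Against lung, 8 were higher in heart (15.9% of all) and Cpt1a was lower (20.4% of all), with a median of 2.05. Against thymus, 8 were higher in heart (15.5% of all), with a median of 2.11. Liver exceeded lung for 7 (13.0% of all; the others were Hadhb and the Cpt1b-Chkb probe set) and exceeded thymus for 7 (14.7% of all), while the shared probe set was higher in thymus than liver (18.2% of all). Between lung and thymus, 0 of 9 were higher in lung (15.3% of all) and 1, the shared probe set, was higher in thymus (10.6% of all). The median difference was 0.12. These counts are near the shares of all rows and do not show that lung and thymus are alike. Hadhb and Hadha gave lung minus thymus differences of -0.46 and -0.30 (adjusted p = 0.133 and 0.256). The lung arrays carried hepatocyte markers, as given above. Without the WT lung array, 6 of the 7 liver against lung calls were left, Acadl being the exception. The p66KO lung array, at 10.1 on the hepatocyte list, stayed in that fit, so it does not remove these transcripts, and their part was not tested.

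**Figure D3:**
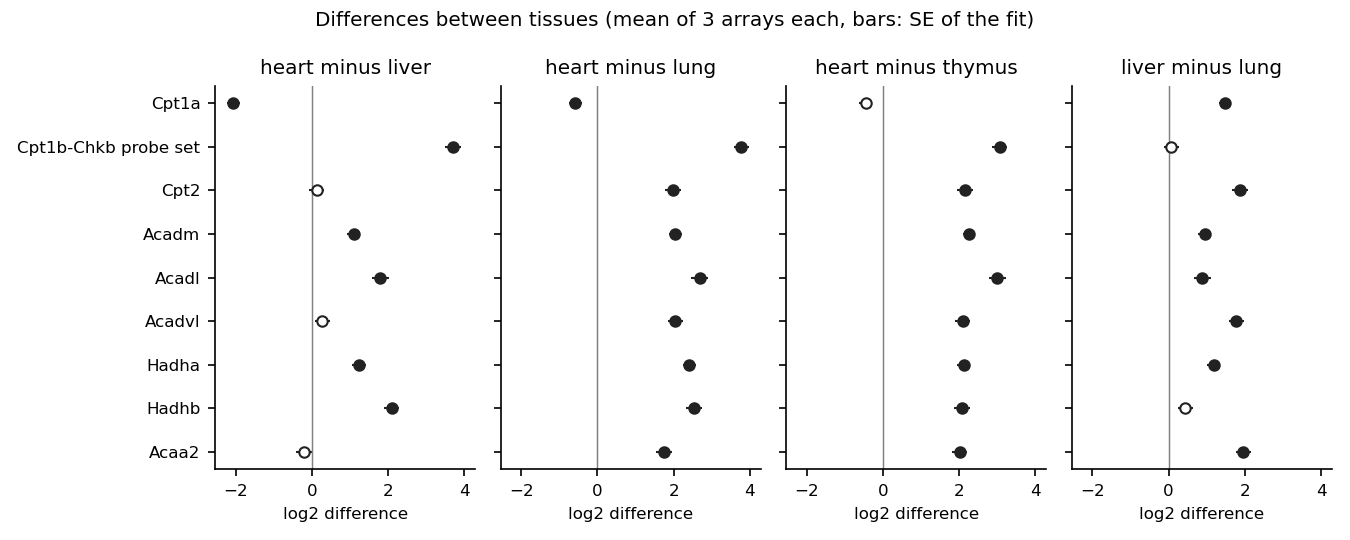
Log2 difference (x axis) between tissue means of 3 arrays each for the 9 probe sets (y axis), with the standard error of the limma fit as bars and filled points where the adjusted p was under 0.05. From heart minus liver to heart minus lung, Cpt2, Acadvl and Acaa2 move from 0.12, 0.27 and -0.21 to 1.99, 2.04 and 1.75.

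The genes with the pattern most like these were sought among 9088 genes whose SD over the 12 arrays was at least that of the median gene. The correlations are descriptions over 12 arrays of 4 tissues that share processing and whose pools may share mice. They largely follow the means of the tissues. Closest to the Cpt1b-Chkb probe set were Uqcc2, Kcnj14, Dlat, Nppb and Kcnip2, with Pearson r from 0.991 to 0.994. Nppb encodes the B-type natriuretic peptide, Dlat the E2 subunit of pyruvate dehydrogenase, and Kcnip2 a subunit of a cardiac potassium channel. Closest to Cpt1a were Pcx, Ebp, Apoc1, Asl and Rnf149 (r from 0.964 to 0.970). Pcx encodes pyruvate carboxylase, Asl an enzyme of the urea cycle, and Apoc1 an apolipoprotein. Closest to the mean of the other 7 genes were Etfdh, Mettl22, Mipep, Pdk2 and Rdh14 (r from 0.982 to 0.989). Etfdh passes electrons from the acyl-CoA dehydrogenases to ubiquinone, and its mean was 11.60 in heart, 10.69 in liver, 8.82 in lung and 9.13 in thymus.

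A fixed list of 66 other genes of fatty acid use gave the wider setting, of which 60 were analysed here. Heart was higher than liver for 16, lower for 22 and not past the test for 22, with a median difference of -0.32 against 0.14 over all genes. Of all 18194 rows, 15.1% passed as higher in heart and 15.4% as higher in liver. Of the 14 other chain-shortening enzymes of the mitochondrion, 2 were higher in heart, 2 were lower and 10 did not pass, close to those shares. Their extremes were Ech1, a dienoyl-CoA isomerase, at 1.87 (SE 0.20, limma adjusted p = 3.02e-05) and Acad11 at -1.90 (SE 0.21). Against lung, the same 14 had 10 higher in heart (15.9% of all rows) and 10 higher in liver (13.0% of all rows), with 0 lower. The 3 electron transfer genes ran from 0.33 for Etfb (adjusted p = 0.14) to 0.91 for Etfdh (adjusted p = 0.004), and all 3 passed the test for heart over lung and for liver over lung.

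The division between heart and liver was wide in uptake and in the peroxisome. Of 11 uptake and activation genes, 3 were higher in heart (15.1% of all rows) and 7 in liver (15.4% of all rows). They ran from Fabp3, the heart fatty acid binding protein, at 7.30 to Fabp1, that of liver, at -7.56. Of 8 peroxisomal genes, 0 were higher in heart and 7 in liver, against the same shares of all rows. The thiolase Acaa1b stood at -7.81, and Abcd2 at 0.39 (limma adjusted p = 0.253) was the other extreme. The carnitine group ran from Crat, carnitine acetyltransferase, at 0.79 to Crot, the peroxisomal carnitine octanoyltransferase, at -4.72. For ketone bodies, Oxct1, which uses them, differed by 5.57, and Bdh1, which interconverts them, by -2.91. Among 10 regulators, the coactivator Ppargc1a was higher in heart by 1.91 and the receptor Ppara higher in liver, at -3.06. Of the brakes, Pdk4, a kinase that shuts pyruvate dehydrogenase, differed by 4.85, and the thioesterase Acot1 by -1.29.

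**Figure D4:**
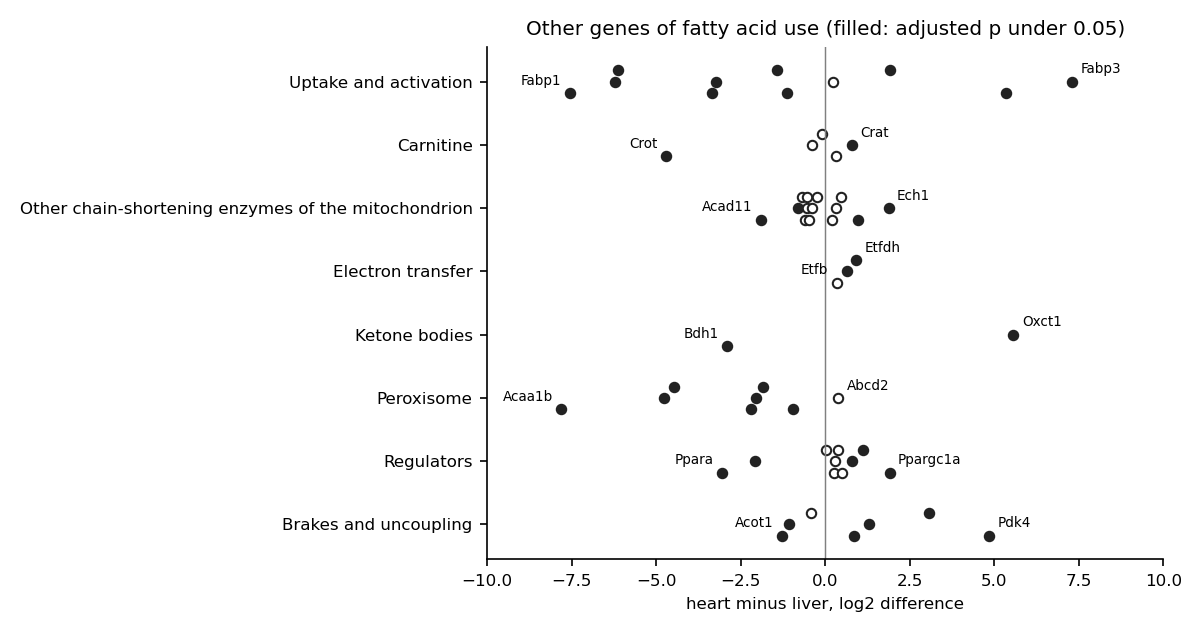
Heart minus liver log2 difference (x axis) of the 60 other genes with a probe set of their own, 1 point per gene, grouped by role (y axis) and filled where the limma adjusted p was under 0.05, with the extremes of each role named. The peroxisomal genes spread from -7.81 to 0.39, while the other mitochondrial enzymes stay between -1.90 and 1.87.

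Both knock-outs were compared with WT over the 4 tissues in the same fit, and they share the WT arrays. Under p53KO, 0 of the 9 probe sets passed the adjusted threshold, as did 0.0055% of all rows, that is 1 gene, the heat shock gene Hspa1b (-3.20, SE 0.31, adjusted p = 0.0208). At an unadjusted p under 0.05 there were 1 of the 9 and 1873 of all. The median of the 9 was -0.21, against 0.04 over all genes, and 8 of 9 lay below 0. Cpt2 had the largest difference, -0.58 (SE 0.18, limma adjusted p = 0.356), and was lower in p53KO than WT in 4 of 4 tissues. Acadl and Acadvl followed at -0.41 and -0.36 (adjusted p = 0.498 and 0.504). A dim second probe set of Cpt2 was higher in p53KO than WT lung, by 0.25, and lower in the other tissues. Under p66KO, 0 of the 9 and 0.0% of all rows passed, with 1 of the 9 and 717 of all at an unadjusted p under 0.05. The median of the 9 was -0.01 and the differences ran from -0.42 for Cpt1a (SE 0.14, adjusted p = 0.9999) to 0.24 for Hadhb. Cpt1a was lower than WT in 4 of 4 tissues in both knock-outs, by 0.08 to 0.47 in p53KO and by 0.15 to 0.90 in p66KO, except that a second quantile normalization and cyclic loess turned its p53KO lung difference to 0.18 and 0.07, and the mean of its probe sets gave 0.30 in p66KO thymus.

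Within a tissue each genotype is 1 array, so no test was made, and none of the 9 reached 2-fold in any of the 8 comparisons. In heart, 8 of 9 were lower in p53KO and 9 of 9 in p66KO, with medians of -0.32 and -0.44. Over all genes 2.19% and 1.85% reached 2-fold and the medians were 0.03 and near 0. Cpt2 stood at -0.48 and -0.63, Cpt1a at -0.46 and -0.42 (-0.99 and -0.87 with its probe sets averaged) and Hadhb at 0.07 and -0.07. These directions rest on the scaling: the heart medians were -0.03 and -0.03 after a second quantile normalization and -0.05 and -0.04 after cyclic loess, with 5 and 6 of the 9 below 0 in either case. The WT heart array, shared by both comparisons, also stood apart in markers: 7 of 7 salivary gland genes averaged 8.77 there against 5.07 and 5.22 in the knock-outs. In the same order, the hepatocyte list averaged 7.83, 6.57 and 7.43, and adipocyte genes (4 of 6 measured) 8.03, 7.49 and 7.34. The brown adipocyte list averaged 10.1, 9.81 and 9.38, and the respiratory chain list, 12 of 12 measured, 13.1, 13.0 and 12.8. Within the brown adipocyte list, Ucp1 read 10.2, 9.40 and 7.86 and Dio2 6.97, 6.82 and 7.01. Its members Cox7a1 and Cox8b were brighter in heart than in the other tissues. The part of all these markers in the result was not tested.

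In liver the medians were -0.35 in p53KO (-0.17 after a second quantile normalization and -0.21 after cyclic loess) and -0.11 in p66KO, and 0.511% and 0.385% of all genes reached 2-fold. Cpt1a in p66KO, at -0.90 from WT, was the largest liver difference, and stayed between -0.93 and -0.73 under every scaling tried. The hepatocyte list averaged 14.2, 14.1 and 14.1 in these livers. In lung the medians were -0.05 and 0.12, with 4.76% and 0.654% of all genes at 2-fold. The p53KO lung median turned to 0.20 after a second quantile normalization, with 8 of 9 above 0, and to 0.11 after cyclic loess, with 7 of 9. Cpt2 was lowest in p53KO lung, at -0.70, and Hadhb highest in p66KO lung, at 0.72. The hepatocyte list in the same lungs, 11.2, 7.05 and 10.1, was lowest in p53KO, as was the skeletal muscle list at 8.3, 7.1 and 8.2. The brown adipocyte list was highest in p66KO, at 8.4, 8.6 and 8.9 in the same order. The 18S control was highest in p53KO, at 5.52, 9.79 and 5.94. The part of all these was not tested.

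On the probe sets used and the deposited scaling, the knock-outs stood on opposite sides of WT in thymus. The median was -0.29 in p53KO, with 7 of 9 lower, and 0.31 in p66KO, with 8 of 9 higher, while 13.7% and 17.5% of all genes reached 2-fold. Acadl read -0.88 in p53KO and 0.18 in p66KO relative to WT, Cpt2 -0.74 and 0.31, and Acadvl -0.55 and 0.43. Set against each other, p53KO lay below p66KO by 1.06 for Acadl, 1.05 for Cpt2 and 0.98 for Acadvl. The p53KO values stayed below WT for these 3 genes under every scaling, reaching -1.38, -1.15 and -1.09 after a second quantile normalization. But the p66KO median turned from 0.31 to -0.28 after a second quantile normalization and to -0.18 after cyclic loess. It was 0.45 with each array centred on its median. With a dim second probe set averaged in, the p66KO difference was -0.16 for Acadl and -0.04 for Cpt2. The p53KO differences were then -0.66 and -0.52. In the same 3 thymuses Ucp1, the defining gene of brown fat, read 12.2, 10.9 and 11.7, adipocyte genes averaged 8.36, 7.48 and 8.34 (4 of 6 measured), and skeletal muscle genes 5.88, 8.97 and 5.86. As to RNA, the 18S control read 10.9, 10.3 and 5.97, and the 3' minus 5' signal of Gapdh was 0.35, 0.24 and 0.59. The WT array, shared by both comparisons, carried salivary gland genes at 14.4, against 4.95 and 4.92 in p53KO and p66KO. The respiratory chain list averaged 11.15, 11.50 and 11.61 in WT, p53KO and p66KO. The Ucp1, adipocyte and skeletal muscle values and the Gapdh signal were lowest or highest in p53KO. The 18S control was lowest in p66KO. The salivary gland list was highest and the respiratory chain list lowest in WT. The part of all these in the result was not tested.

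**Figure D5:**
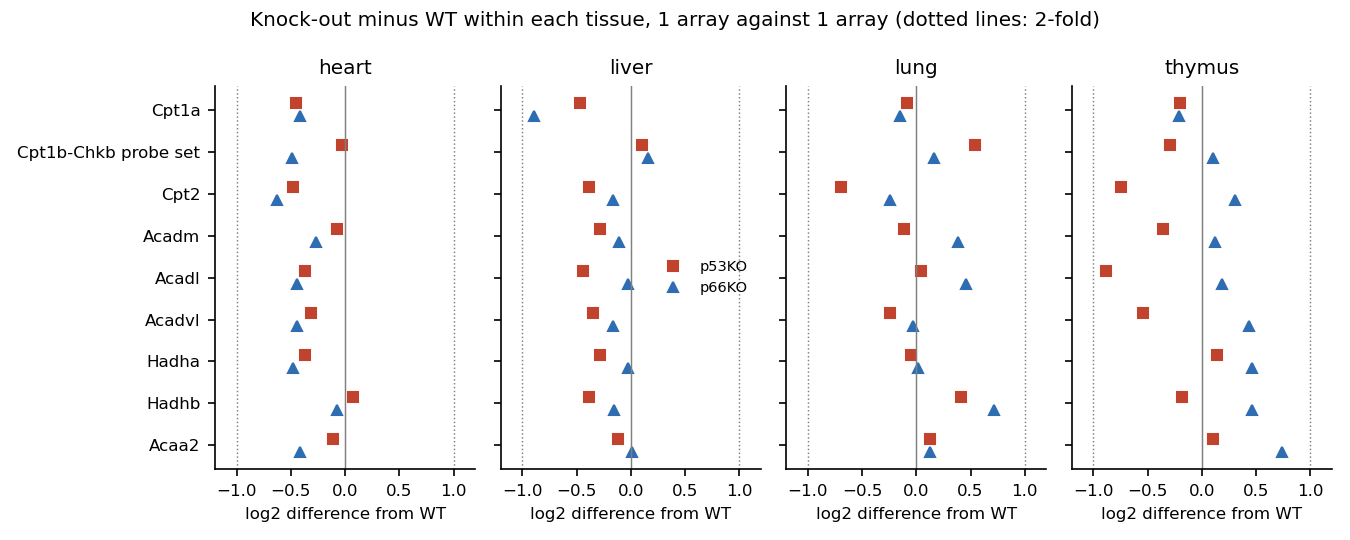
Knock-out minus WT log2 difference (x axis) within each tissue for the 9 probe sets (y axis), 1 array against 1 array, with dotted lines at 2-fold. No point reaches 2-fold; the heart points lie mostly left of 0, and in thymus the p53KO and p66KO points part for Acadl (-0.88 and 0.18) and Cpt2 (-0.74 and 0.31).

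Of the 60 other fatty acid genes, 0 passed the test in either knock-out over the tissues. Genes that left WT by 2-fold or more, the same way under either knock-out of a tissue, were 3 in heart, 0 in liver, 1 in lung and 3 in thymus, and both comparisons share the WT array. Of all 18194 rows, 0.874% did so in heart, 0.209% in liver, 0.357% in lung and 10.3% in thymus, so 3 of 60 in thymus is below the share of all genes there. In heart they were Pdk4 (-1.60 in p53KO and -1.63 in p66KO), Ehhadh, the peroxisomal bifunctional enzyme (-1.13 and -1.18), and Bdh1 (-1.05 and -1.22). Ehhadh was dim there, at 6.56, 5.42 and 5.38. Pdk4 read 12.90, 11.30 and 11.27 in WT, p53KO and p66KO heart, and was also lower in p53KO liver (-1.65) and p53KO thymus (-1.42), where p66KO differed by -0.32 and -0.14. Over all 4 tissues its p53KO difference was -1.37 (SE 0.27, limma adjusted p = 0.197). In lung the gene was Acaa1b (-1.66 and -1.24), which read 13.06 to 13.36 in liver. The part of the hepatocyte transcripts in this difference was not tested. In thymus they were Pex11a, a peroxisome division factor (-1.89 and -1.56), Ppargc1a (-1.08 and -1.13) and Bdh1 (1.22 and 1.36). Every one of these kept its direction under each scaling tried, with absolute sizes from 0.86 to 2.17, and Ppargc1a stood at -0.56 and -0.56 with its probe sets averaged. Ppargc1a was dim in thymus, at 6.5, 5.5 and 5.4 in WT, p53KO and p66KO. The WT arrays behind the heart and thymus values carried salivary gland genes, at 8.77 and 14.4. Their part in these differences was not tested.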

How the data were processed

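RNA pools of heart, liver, lung and thymus were hybridized to Affymetrix GeneChip mouse genome arrays, 1 for each tissue and genotype. The authors normalized the scans by RMA in Partek 6.5 (background correction, quantile normalization and median polish), and deposited 1 log2 signal for every probe set. The deposited arrays were not fully aligned: their medians ran from 6.22 in p66KO thymus to 6.42 in p66KO heart. Their lower quartiles ran from 5.01 in WT lung to 5.27 in p66KO heart. The signals were used without further normalization. RMA can compress strong signals, and probes can cross-hybridize, so differences and not levels were compared between genes. Of 45037 probe sets other than 64 controls, 34945 carried 1 gene symbol. For 18193 genes the probe set of highest mean over the 12 arrays was taken, and the Cpt1b-Chkb probe set was added, which gave 18194 rows.

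limma 3.58.1 in R 4.3.3 was fitted to all rows with tissue and genotype as terms, which left 6 residual degrees of freedom. The 3 genotypes of a tissue are its only repeats, so the spread combines array noise with any genotype effect particular to a tissue, and p-values measure the spread between these pools. Adjusted p is Benjamini-Hochberg within each contrast, with a threshold of 0.05. Within a tissue a difference of 1 on the log2 scale (2-fold) was counted without a test. The fit was checked on simulated data. Promoter windows are those of RefSeq on GRCm38.p6. Named genes were all listed genes, the extremes of heart minus liver in each role of the list of 66, its genes 2-fold from WT in both knock-outs of a tissue, and the 5 genes most correlated with each pattern. The list, its roles, the markers and the listed genes were chosen with earlier results of these data known. The number of arrays limits the precision. Alternatives in scaling, probe set, filter, variance model, threshold and arrays were computed. The tissue screening methods name no lung pools, and the gene deleted in p53KO was not analysed here.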

Additional observations from a re-analysis of the deposited data

Results flagged for a closer look

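Bdh1, which interconverts the ketone bodies acetoacetate and beta-hydroxybutyrate, stood on opposite sides of WT in different tissues. The p53KO minus WT difference was 1.22 in thymus and -1.76 in lung. The p66KO minus WT difference was 1.36 in thymus and -1.22 in heart. Each rests on 1 array per genotype and tissue, and the difference between the tissues was not tested. The WT thymus array is shared by both thymus values and also carried salivary gland markers at 14.4, and the WT lung array carried hepatocyte markers at 11.2. Bdh1 was higher in liver than in heart, and the part of these markers in its differences was not tested.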

How the results depend on the processing

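Of 1188 values of single probe sets between tissues under 22 alternatives each, 1163 kept their side of the threshold. Another 17 lost and 8 gained the call, and 0 called values turned sign. All 432 knock-out values over tissues stayed on their side of the threshold, under 24 alternatives each. Of the tissue and knock-out values not past the threshold, 64 changed sign, and these are counted among those that kept their side. The number of the 9 probe sets past the threshold between lung and thymus, 1 as reported, was 2 where a gene's probe sets were averaged and 0 without the WT thymus and WT lung arrays together. Leaving out 1 array at a time, it ran from 0 to 2. It was 0 without the WT lung, p66KO lung or p66KO thymus array and 2 without the WT thymus array. The same leave-one-out counts were 6 to 6 for heart against liver, 8 to 9 for heart against lung and heart against thymus, 6 to 7 for liver against lung, 7 to 8 for liver against thymus and 0 to 0 for either knock-out. Within tissues, the count at 2-fold was 0 throughout as reported. At 1.5-fold it was 1 in p66KO heart, 1 in p66KO liver, 1 in p53KO lung, 1 in p66KO lung, 2 in p53KO thymus and 1 in p66KO thymus. With averaged probe sets it was 1 in p53KO lung. In p53KO thymus it was 3 after a second quantile normalization and 2 after cyclic loess. With the other knock-out array as the reference in place of WT it was 2 in thymus, for p53KO as for p66KO. The share of all genes was computed only at 2-fold against WT under the reported scaling. The counts at the other settings therefore have no share beside them and are not read as a result about the 9. The cause was not tested for any of these counts. No paired analysis was possible because the labels give no replicate numbers shared between groups beyond the genotype and tissue already in the fit. With 1 pool per genotype and tissue, differences within a tissue have no measured error.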
